A study of Mus musculus with 6 samples.

Results

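The inflammatory chemokine receptor genes of mouse chromosome 9 were followed through 6 lists of accessible regions from tumour-exposed regulatory T cells (Tregs). They were Ccr9, Cxcr6, Ccr1, Ccr3 and Ccr2, which lie in this order in a stretch of 361.93 kb, with 10 kb counted at each end. A peak belonged to a gene when it overlapped the RefSeq span of the gene or the 10 kb on either side (mm10). Merging overlapping peaks of all lists gave 64817 regions, and 20 of them lay in the 5 windows.

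ATAC-seq, the assay used here, reads out open chromatin from the places where the enzyme Tn5 could insert its adapters. The knockout (KO) libraries, replicates 1, 2 and 4, came from il33-/- mice on a C57BL6 background, which lack the cytokine interleukin-33, and the wild-type (WT) libraries, replicates 2, 4 and 6, from C57BL6 mice. All of these mice carried B16.F10 melanoma, a transplantable mouse tumour line, for 14 days after 300000 cells had been placed under the skin, and the Tregs, CD4+CD25+GITR+ in the sort, were taken from the tumour-draining lymph nodes. The labels give no age and do not say whether replicates came from separate mice, and p-values therefore cover the spread among libraries only, which may be technical.

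Peak heights are the deposited pileup, the number of extended tags over the summit, and were divided by the median pileup of the same list, so that a scaled height of 1 is the middle of the list. KO libraries held 4.72 to 10.3 M filtered tags (M, mega) and WT libraries 12.9 to 15.2 M. KO lists held 37266 to 42738 peaks and WT lists 52836 to 55939, and as the KO libraries were all the shallower ones, genotype and depth cannot be told apart in presence calls. Absence from a list is a missing call and does not show a closed site. In these sorted pools, a smaller share of cells with an open site and less opening per cell also cannot be told apart. With 3 libraries against 3, the smallest p of the exact permutation test is 0.1.

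Chemokine receptors are G protein-coupled receptors that steer leukocytes along gradients of chemokines. The genes of this cluster lie close together, and most of their ligands are induced during inflammation. In Tregs, receptors of this kind are known for directing the cells from lymph nodes into inflamed tissues and tumours. Ccr9 encodes the receptor of Ccl25 and is known for homing to the gut and thymus. Cxcr6 binds Cxcl16 and is a known marker of effector and tissue-resident T cells. Ccr1 binds Ccl3 and Ccl5, Ccr3 is the eotaxin receptor of eosinophils, and Ccr2 is the Ccl2 receptor best known for the exit of monocytes from bone marrow.

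Start sites of Cxcr6 and Ccr1 were the only members' start sites with a peak in every library of a genotype, and their promoter windows are therefore shown, from RefSeq on GRCm38.p6 (the assembly behind mm10). Each runs 5′ to 3′ on the strand of the gene, from 250 bases before to 50 bases after the start. The Cxcr6 window is chr9:123806227-123806526 on the plus strand and the Ccr1 window chr9:123968643-123968942 on the minus strand. Capitals mark ACCACA, the reverse complement of the RUNX letters TGTGGT, whose first base lay 10 bases before the Cxcr6 start and 58 bases before the Ccr1 start.
Cxcr6: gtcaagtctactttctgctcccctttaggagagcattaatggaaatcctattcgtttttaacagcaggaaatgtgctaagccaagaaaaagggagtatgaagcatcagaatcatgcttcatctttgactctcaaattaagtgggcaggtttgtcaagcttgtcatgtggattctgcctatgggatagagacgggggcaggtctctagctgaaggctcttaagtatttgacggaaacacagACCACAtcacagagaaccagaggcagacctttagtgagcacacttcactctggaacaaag
Ccr1: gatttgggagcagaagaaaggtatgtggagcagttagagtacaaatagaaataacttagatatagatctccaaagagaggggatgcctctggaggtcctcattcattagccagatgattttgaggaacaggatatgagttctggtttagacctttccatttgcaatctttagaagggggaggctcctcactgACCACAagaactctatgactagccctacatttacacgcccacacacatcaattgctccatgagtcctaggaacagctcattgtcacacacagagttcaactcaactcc
These RUNX letters were present on either strand in 15.1% of 17492 promoter windows of protein-coding genes, and a match of letters is no evidence of binding. Of the 10 motifs searched, no other was found in these 2 windows. The Ccr3 window held the ETS letters GGAAGT, the AP-1 letters TGANTCA and the GATA letters AGATAA, which 25.1%, 7.08% and 9.96% of promoter windows held. The Ccr2 window held AGATAA on the minus strand, and the Ccr9 window held none of the 10. All 5 promoter windows were poor in CpG, with 4 at Ccr9, 3 at Cxcr6 and 1 each at Ccr1, Ccr3 and Ccr2, against a median of 13.

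A peak covered the Cxcr6 promoter window in all 6 libraries. The Ccr1 window was covered in every WT library and no KO library, the Ccr9 window in WT replicate 6 alone, and the Ccr3 and Ccr2 windows in no library. Over all protein-coding genes, 46.3% of promoter windows were covered in all 6 libraries, 45.5% in none, and 0.909% in all WT and no KO libraries. Among the 5101 windows with no more than 4 CpG, 3.20% were covered in all 6. The 5 receptor genes thus carried most of their peaks away from their start sites, as the map of called peaks shows.

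**Figure D1:**
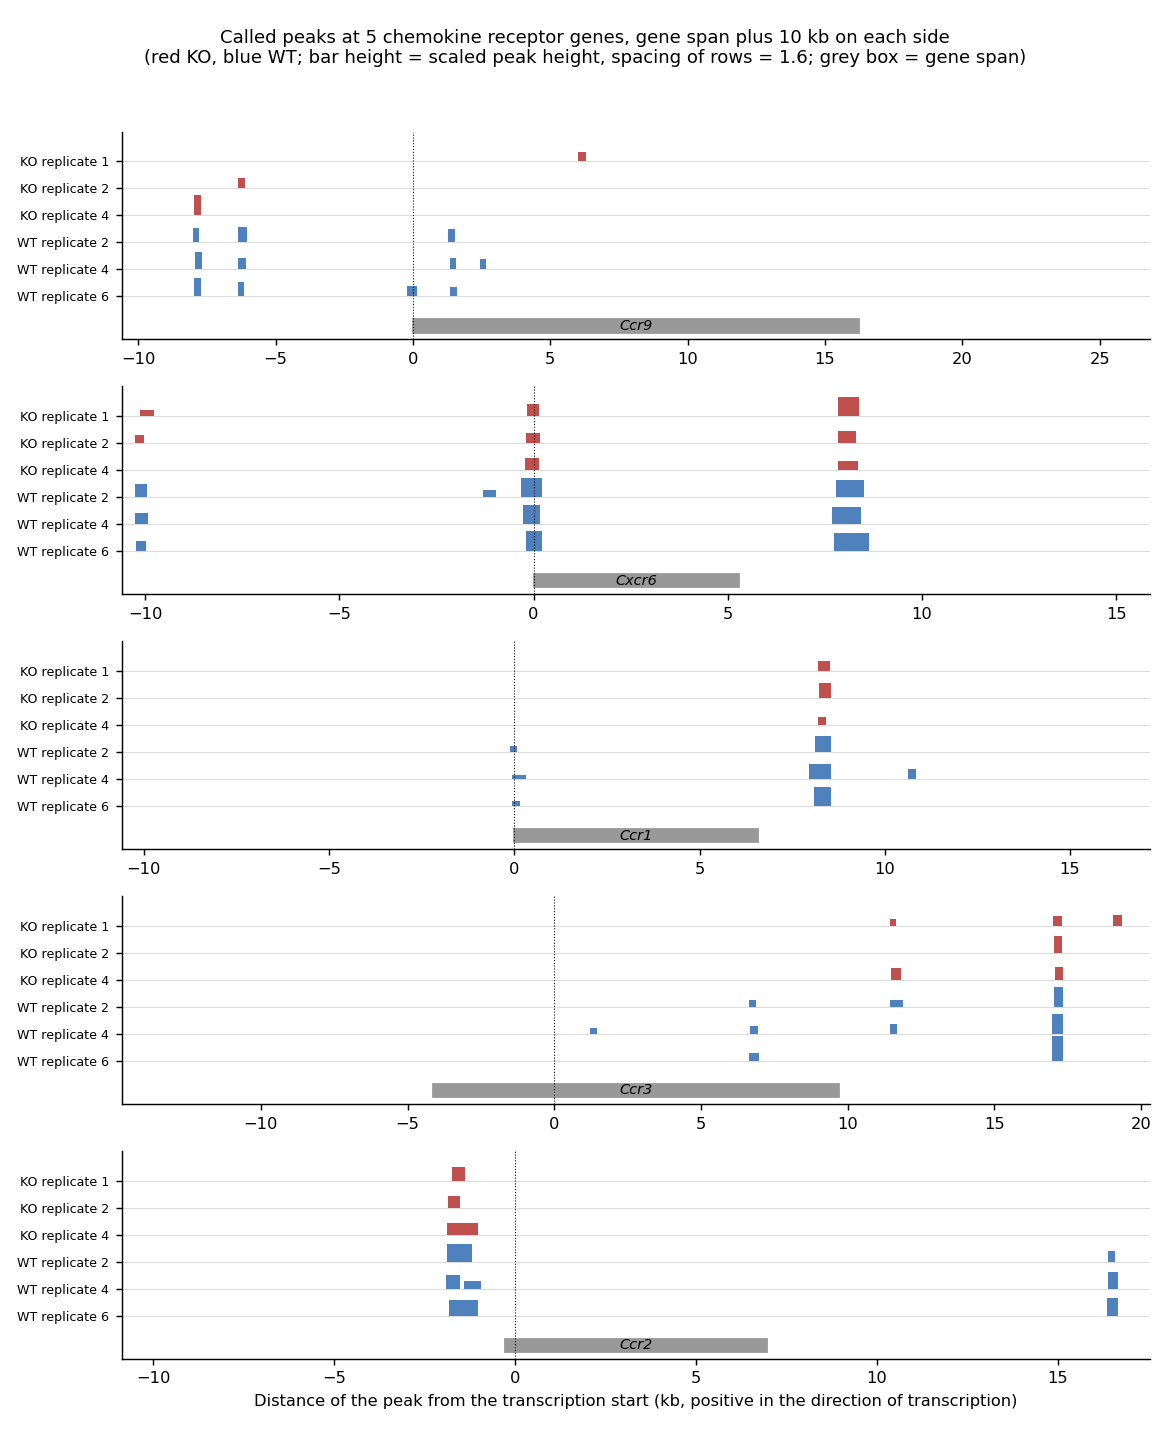
Called peaks within the gene span plus 10 kb, by distance from the transcription start in kb (positive in the direction of transcription), with KO libraries in red above WT libraries in blue. Bar width is the length of the peak, bar height its scaled height, with rows 1.6 apart, and the grey box is the gene span. Cxcr6 is the gene with a peak at its start in all 6 libraries. Every panel holds fewer KO than WT peaks in total, though single libraries overlap at Cxcr6 and Ccr3.

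The cluster was called less often in KO than in WT lists. Its windows held 9, 6 and 7 peaks in KO replicates 1, 2 and 4, against 14, 17 and 13 in WT replicates 2, 4 and 6. The means were 7.33 ± 1.53 in KO and 14.7 ± 2.08 in WT libraries (SD, n = 3 each, exact permutation p = 0.1), and the genotypes did not overlap. Per 10000 peaks of the list, KO libraries had 2.12, 1.61 and 1.64 and WT libraries 2.63, 3.04 and 2.46, again without overlap (1.79 ± 0.288 in KO and 2.71 ± 0.298 in WT libraries, exact permutation p = 0.1, n = 3 each). The peaks covered 2605 ± 518 bases in KO and 5419 ± 413 bases in WT libraries, a difference of -2813.67 bases that was -923.667 in lists of equal length (exact permutation p = 0.1 in both, n = 3 each). When every list was shortened to its 37266 most significant peaks, the windows held 7, 6 and 7 peaks in KO and 7 in each WT library (exact permutation p = 1, n = 3 each).

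Regions shared by all 6 libraries numbered 5 of the 20 (25%), against 45.4% of all merged regions. A further 4 of the 20 had a call in every WT library and no KO library, against 4.66% of all merged regions. In lists of equal length this count was 0, against 0.966% of merged regions, and at a −log10 q of at least 5 it was 2, against 6.51%. The reverse pattern was found for none of the 20 and for 0.0185% of all regions. In addition, 7 regions were called in 1 library only, 5 of them in a WT and 2 in a KO library, while 17.5% of all regions had a call in a single library. Of the 12 regions called in every WT library, all KO libraries called 5, against a background of 67.6%, and no KO library called 4, against 6.95%. The cluster's shared regions were low ones, with a median WT scaled height of 1.05 where all shared regions had 1.65.

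By gene, Ccr9, Ccr1 and Ccr2 had KO peak numbers below all WT numbers, or 3 of 5 members, against 15.5% of 16246 protein-coding genes with a peak. Numbers above all WT numbers were found at no member and at 0.388% of genes. Ccr9 had 1 peak in each KO library, against 3, 4 and 4 in the WT libraries. Ccr1 had 1 peak in each KO library, against 2, 3 and 2 in the WT libraries. Ccr2 showed the same numbers as Ccr1. Cxcr6 had 3, 2 and 2 in KO and 4, 3 and 3 in WT libraries, and Ccr3 3, 1 and 2 in KO and 3, 4 and 2 in WT libraries, so both overlapped. Per 10000 peaks the same 3 of 5 members stood apart, against 7.6% of genes. More peaks per 10000 in each KO library were found for 31% of all genes and none of the members. In the lists of equal length Cxcr6 alone had fewer peaks in every KO library, 2 each, against 3 in each WT library. There, Ccr9 had 1 peak in each KO library and 1, 0 and 0 in the WT libraries, and Ccr3 had 2, 1 and 2 in KO and 1 in each WT library.

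**Figure D2:**
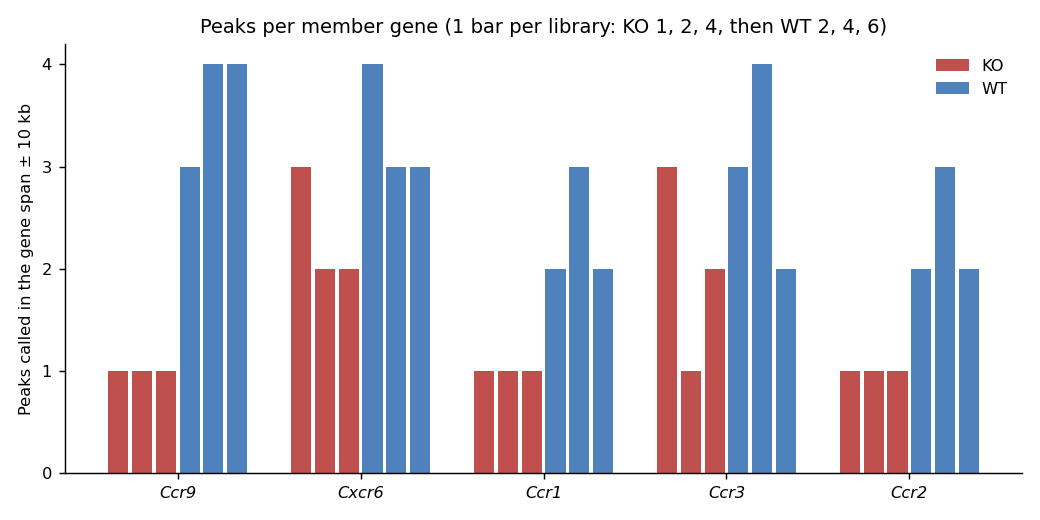
Number of called peaks in the gene span plus 10 kb of each receptor gene, with KO bars to the left of WT bars and 1 bar per library. KO bars are lower than all WT bars at Ccr9, Ccr1 and Ccr2, while Cxcr6 and Ccr3 overlap.

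Cxcr6 was the member with a start-site peak in every library, and this peak was lower in KO than in WT libraries under every scaling of peak height run. Its start-site region, chr9:123806166-123806708, had pileups of 14, 10 and 17 tags in KO replicates 1, 2 and 4, against 32, 30 and 35 tags in WT replicates 2, 4 and 6. Scaled to each list, these were 0.70, 0.625 and 0.739 in KO and 1.14, 1.11 and 1.21 in WT libraries. Every KO library lay below every WT library, and the mean was 0.688 ± 0.0580 in KO and 1.15 ± 0.0488 in WT libraries (SD, n = 3 each). The ratio was 0.596, a log2 difference of -0.75 (exact permutation p = 0.1). Under this scaling all 29419 shared regions had a median log2 difference of -0.31. Relative to that median the Cxcr6 start stood at -0.43, and 4.32% of shared regions had a difference as low or lower. The peak was 310 to 351 bp long in KO and 418 to 535 bp in WT libraries, and its summits lay within 69 bp of each other.

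At the other Cxcr6 regions the genotypes overlapped or calls were missing. The region 8.11 kb downstream of the start, chr9:123814149-123815121, had scaled heights of 1.15, 0.688 and 0.565 in KO and 1.04, 1.04 and 1.07 in WT libraries. The genotypes overlapped there, with KO replicate 1 the highest of the 6 and KO replicate 4 the lowest. At -10.1 kb from the start, chr9:123796218-123796720, KO replicates 1 and 2 had pileups of 7 and 8 tags and KO replicate 4 no peak, against 21, 18 and 18 tags in the WT libraries. A weak peak at -1.03 kb, of 11 tags, was called in WT replicate 2 alone. Cxcr6 lies inside the span of Fyco1, which encodes an adaptor of autophagosome transport, so that all 4 regions also belong to that gene's span.

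Ccr1 had a shared region beyond its 3′ end and a start-site region in WT lists only. The shared region, 8.36 kb downstream of the start (chr9:123960145-123960733), had pileups of 12, 14 and 11 tags in KO and 26, 24 and 32 in WT libraries. Scaled heights were 0.60, 0.875 and 0.478 in KO and 0.929, 0.889 and 1.10 in WT libraries, with KO replicate 2 just below the lowest WT library (log2 -0.58, or -0.27 relative to all shared regions). The start-site region, chr9:123968367-123968813, was absent from every KO list and had 10, 7 and 8 tags in WT libraries. These were among the lowest peaks of the WT lists, at the 8.98, 0.579 and 0.605 percentile of significance. At the WT rate per tag, the KO libraries would have held 5.02, 2.89 and 6.30 tags there, where the lowest peak of their lists had 5, 4 and 6. These rates come from a region that WT lists called, and so near the lowest peaks the missing KO calls do not show a difference at the Ccr1 start. One more region, 10.7 kb downstream, was called in WT replicate 4 alone with 16 tags.

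Ccr2 had its shared region upstream and a further region downstream that only WT lists held. The upstream region, at -1.69 kb from the start (chr9:124100276-124101247), had scaled heights of 0.80, 0.688 and 0.696 in KO and 1.04, 0.815 and 0.897 in WT libraries. Every KO library lay below every WT library, but the log2 difference of -0.33 was close to the median of all shared regions (-0.02 relative to it). Under other scalings of height the genotypes overlapped there, with log2 differences of 0.01 to 0.05 when heights were divided by the median of the shared regions or by tags. The downstream region, 16.5 kb past the start (chr9:124118547-124118845), was absent from the KO lists and had 18, 27 and 30 tags in WT libraries. It was of middling strength in WT, at the 23.1, 50.2 and 54.9 percentile. At the WT rate per tag, 14.9, 8.56 and 18.7 tags would have stood there in the KO libraries, and 33.1%, 18.1% and 38.5% of the peaks in their lists were that low or lower. This rate, too, comes from a region that WT lists called, and the share ranks pileup without the local background on which calls depend. Among the 4 regions called in WT lists only, the downstream Ccr2 region had the highest rate per tag. In lists of equal length it was missing from WT replicate 2 as well.

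Ccr3, whose product is the receptor of Ccl11 and Ccl24, carried its tallest region far downstream. That region, 17.2 kb past the start (chr9:124038945-124039331), was the tallest shared region of the cluster in WT libraries. It had pileups of 12, 16 and 18 tags in KO and 33, 32 and 43 in WT libraries, with summits within 15 bp of each other. The scaled heights were 0.60, 1 and 0.783 in KO and 1.18, 1.19 and 1.48 in WT libraries (0.794 ± 0.200 in KO and 1.28 ± 0.174 in WT libraries, with the SD), without overlap. The log2 difference was -0.69, or -0.38 relative to all shared regions. Inside the gene, 6.78 kb past the start (chr9:124028616-124028959), 12, 13 and 13 tags were called in WT libraries and no peak in KO libraries. At the WT rate this region would have had 7.60, 4.37 and 9.55 tags in the KO libraries, a height reached or undercut by 4.18%, 0.309% and 6.12% of their peaks. The rate again comes from a region that WT lists called. A region 11.5 kb past the start was called with 8 and 16 tags in KO replicates 1 and 4 and with 12 and 16 tags in WT replicates 2 and 4. Single libraries added a peak of 13 tags at 19.2 kb in KO replicate 1 and a peak of 9 tags at 1.37 kb in WT replicate 4.

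Ccr9 was the member with no region shared by all 6 libraries. Both of its upstream regions were called in every WT library and in a single KO library. At -7.87 kb from the start (chr9:123759211-123759520), KO replicate 4 had 28 tags, against 24, 27 and 31 in the WT libraries, a scaled height of 1.22 in that KO library and 0.857 to 1.07 in WT libraries. At -6.23 kb from the start (chr9:123760853-123761164), KO replicate 2 had 10 tags, against 26, 18 and 24 in the WT libraries. Different KO libraries thus called the 2 regions, and where called in KO, the height of the first lay above the WT range and of the second, at 0.625, below it. Inside the gene, 1.39 kb past the start (chr9:123768493-123768809), WT libraries had 22, 18 and 15 tags and KO libraries no call. At the WT rate, the KO libraries would have had 11.1, 6.40 and 14.0 tags there, and 21.3%, 7.07% and 22.0% of their peaks were that low or lower. That rate also comes from a region that WT lists called. Its local background was 1.22 times the median of the list, and its WT peaks lay at the 27.7, 15.0 and 2.01 percentile of significance. The start itself had a peak of 17 tags in WT replicate 6, a region 2.6 kb past it had 16 tags in WT replicate 4, and 1 at 6.1 kb had 11 tags in KO replicate 1.

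**Figure D3:**
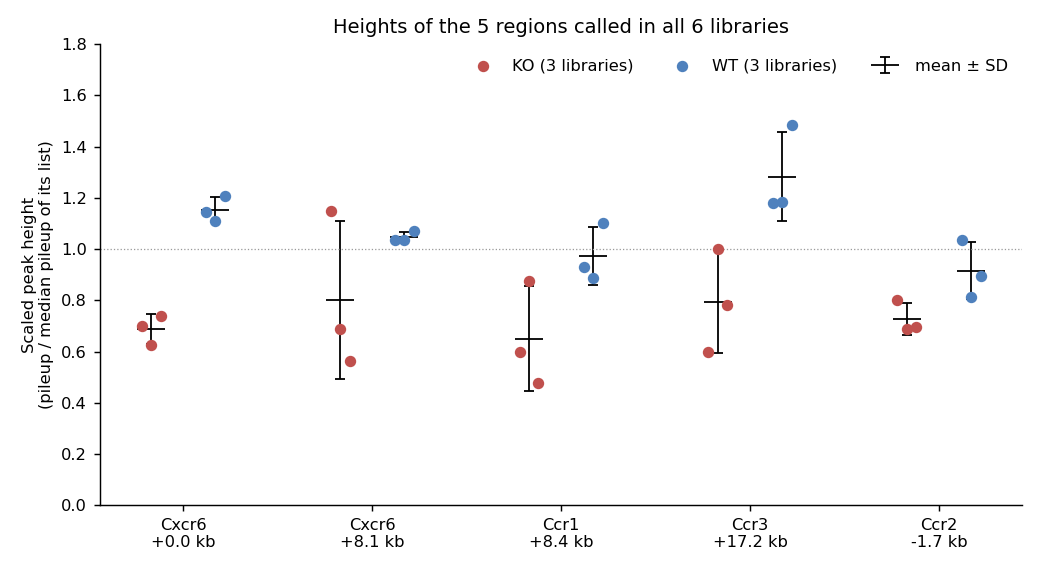
Scaled peak height (pileup over the median pileup of the list) of the 5 regions called in all 6 libraries, named by gene and distance from the start in kb, with KO to the left of WT, 1 point per library and the mean with its SD. KO points lie below all WT points in 4 regions, and overlap them 8.1 kb downstream of the Cxcr6 start.

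Of the 5 shared regions, 4 had every KO library below every WT library, a pattern of 48.2% of all shared regions (0.197% had the reverse) and of 46.4% of the 5398 with a WT height in the same range. That range, 0.916 to 1.28, was chosen after the values were seen. The mean scaled height over the 5 regions was 0.770, 0.775 and 0.652 in KO replicates 1, 2 and 4 and 1.06, 1.01 and 1.15 in WT replicates 2, 4 and 6 (0.732 ± 0.0695 in KO and 1.07 ± 0.0727 in WT libraries, exact permutation p = 0.1, n = 3 each). This difference of -0.342 kept its sign under the other scalings, but the genotypes were not always as far apart. It was -0.0871 (exact permutation p = 0.2) with the median of the shared regions and -0.208 tags (exact permutation p = 0.7) per M tags. With the median of lists of equal length it was -0.0984 (exact permutation p = 0.2). When peaks within a region were averaged by length it was -0.329 (exact permutation p = 0.1). With the fold enrichment it was also negative (exact permutation p = 0.1). The scalings differ in unit, so the sizes of these differences cannot be compared directly. The median log2 difference of the 5 was -0.58, against -0.31 over all shared regions and -0.40 over those of similar WT height.

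Whether the genotypes overlapped depended on the scaling at 3 of these regions, while the Cxcr6 start had every KO below every WT library under each scaling run. With heights divided by the median of the shared regions, all shared regions had a median log2 difference of 0.04, and the Cxcr6 start was the 1 of 5 regions with every KO below every WT library, at -0.40 (background 6.9%). With heights per M tags it was again the only one, at -0.37 (background 3.34%). Per M tags, the Cxcr6 start had 1.70, 2.12 and 1.65 tags in KO and 2.45, 2.32 and 2.298 in WT libraries. With the authors' fold enrichment over the local background, the Cxcr6 start, at -0.46, and the Ccr3 region 17.2 kb downstream, at -0.54, had every KO below every WT library (background 20.1%). With the median of lists of equal length the Cxcr6 start was also the only one (background 6.52%), and likewise when the lists themselves were shortened to equal length (background 6.63%). Relative to all shared regions, the Cxcr6 start stood at -0.44 to -0.37 in these scalings.

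**Figure D4:**
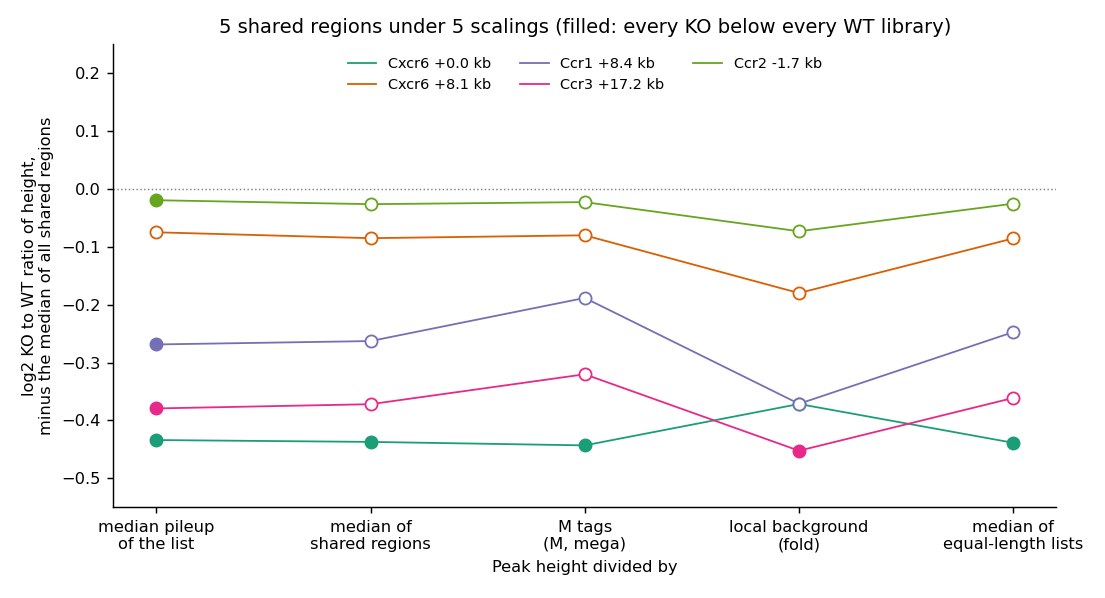
log2 ratio of KO to WT peak height minus the median of all shared regions, for the 5 shared regions of the cluster, under 5 scalings of height. Filled points mark regions with every KO below every WT library, and the Cxcr6 start is filled under each of the 5.

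Between the windows of the receptor genes, the same stretch of chromosome 9 had 16, 15 and 15 peaks in KO and 22, 21 and 19 in WT libraries. Per 10000 peaks this was 3.77 ± 0.258 in KO and 3.83 ± 0.275 in WT libraries (exact permutation p = 0.8, n = 3 each). The receptor windows held 36%, 28.6% and 31.8% of the stretch's peaks in KO and 38.9%, 44.7% and 40.6% in WT libraries, a comparison chosen after the values were seen (difference -9.29 points, exact permutation p = 0.1, n = 3 each). In lists of equal length the difference was 0.696 points (exact permutation p = 0.8). Of the 22 regions between the windows, 11 were called in all 6 libraries and 2 in all WT and no KO libraries (chr9:123940123-123940578 and chr9:124059938-124060349), against 5 and 4 of the 20 in the windows. Over all merged regions, 45.4% had the first pattern and 4.66% the second. A list of 9 further genes on chromosome 9 was also followed, of which Fyco1 and Xcr1 lie in the stretch and the other 7 outside it. These 9 genes all had a region called in all 6 libraries, 16 of 23 regions in total (69.6%), and no region in WT lists only fell within 10 kb of them. Some of these regions belong to more than 1 list, since Fyco1 spans Cxcr6, and Xcr1 and Ccrl2 are chemokine receptor genes. The tallest region of each gene had scaled heights of 4.32 in KO and 4.37 in WT libraries at Sacm1l, a phosphoinositide phosphatase gene, 3.95 in KO and 4.33 in WT at Lztfl1, a gene of ciliary transport, and 2.87 in KO and 2.95 in WT in the region shared by Fyco1 and Xcr1. Lower ones were 2.40 in KO and 3.12 in WT at Rtp3, a receptor transporter gene, 1.15 in KO and 1.70 in WT at Ccrl2, 0.661 in KO and 0.845 in WT at Ltf, which encodes lactotransferrin, 0.526 in KO and 0.809 in WT at Slc6a20a, and 0.457 in KO and 0.369 in WT at Slc6a20b, both amino acid transporter genes.

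The 16 chemokine receptor genes outside the member list held 70 regions, 31 of them (44.3%) with a call in all 6 libraries. In the cluster this was 5 of 20, and over all merged regions 45.4%. Regions in WT lists only numbered 4 of 70, 1 each at Ccr6, Ccr7, Ccr8 and Cxcr5, against 4.66% of all merged regions. Of the 31 shared regions, 8 had every KO below every WT library, against 48.2% of all shared regions. Their median log2 difference over the 31 was -0.25, against -0.31 over all shared regions. Peaks per 10000 were lower in every KO library at Ccr7, the receptor for homing to lymph nodes, with 0.984 in KO and 1.30 in WT libraries on average, and higher at the scavenging receptor gene Ackr2, with 0.246 in KO and 0.185 in WT libraries. At Ackr2 each library had 1 peak, so that the difference is that of the list lengths. Over all genes with a peak, 7.6% had fewer and 31% had more peaks per 10000 in every KO library. The tallest regions lay at Cx3cr1 (3.33 ± 0.202 in KO and 3.64 ± 0.224 in WT), Cxcr4 (3.21 ± 0.133 in KO and 3.57 ± 0.372 in WT), Ccr7 (2.93 ± 0.289 in KO and 3.41 ± 0.400 in WT) and Xcr1 (2.87 ± 0.295 in KO and 2.95 ± 0.333 in WT; scaled heights, SD, n = 3 each). These were all taller than any shared region of the cluster. Ackr3 and Ackr4 had no peak. Summed over the peaks of a gene, the scaled height was below all WT values in every KO library at 5 of 5 members, against 63.1% of genes. At Ccr2 the sums were 0.80, 0.688 and 0.696 in KO and 1.68, 2.26 and 1.93 in WT libraries, and at Cxcr6 2.20, 1.31 and 1.30 in KO and 3.32, 2.81 and 2.90 in WT libraries.

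**Figure D5:**
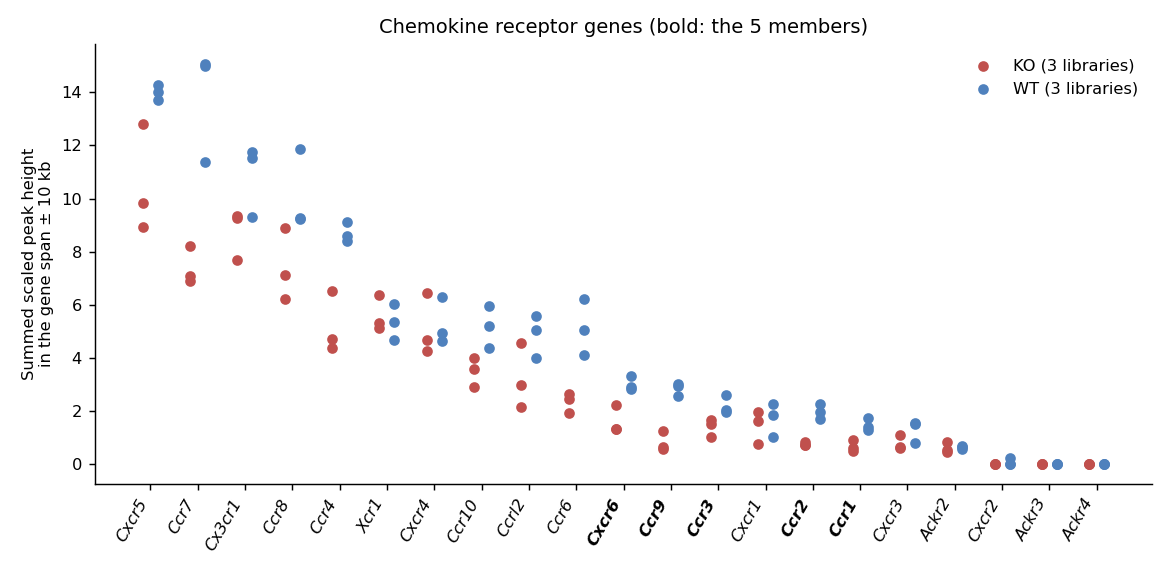
Summed scaled height of the peaks in the gene span plus 10 kb, for the 5 cluster genes (bold) and the other chemokine receptor genes, with KO in red to the left of WT in blue and 1 point per library. The cluster genes lie in the lower part of the order, below Cxcr5 and Ccr7, and their KO points lie below their WT points.

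By the distance between profiles of summed scaled height over the 6 libraries, Cxcr3 and Cxcr1 were the receptor genes most like Ccr9 (1.42 and 1.63), Ccr1 was closest to Cxcr3 and Ackr2 (0.699 and 1.07), and Ccr2 to Cxcr3 and Cxcr1 (0.879 and 1.11). Ccr3 was closest to Cxcr1 and Cxcr3 (0.880 and 1.23), and Cxcr6 to Cxcr1 and Ccr6 (1.25 and 1.44). The distance is Euclidean, on log2 values with 1 added. Of the 10 ligand genes of these receptors, 6 had a region, and Ccl2, Ccl8, Ccl12 and Ccl24 had none. Ccl25, the Ccr9 ligand, had the 1 ligand region called in WT lists only, beside a shared region of 3.48 scaled height in KO and 3.94 in WT libraries. The shared region of Cxcl16, the Cxcr6 ligand, had 3.38 in KO and 3.76 in WT libraries, and that of Ccl3 0.824 in KO and 1.12 in WT libraries.

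The sorted cells carried peaks at all 6 Treg marker genes (Foxp3, Il2ra, Tnfrsf18, Ctla4, Ikzf2 and Cd4) in every library. Their summed scaled heights were 74.8 to 87.7 in KO and 106.5 to 120.1 in WT libraries. Over all genes with a peak, 63.1% had every KO sum below every WT sum. Per 10000 peaks of the list, Treg markers had 10.5 to 11.3 in KO and 10.3 to 11.2 in WT libraries. By that measure, CD8 T and NK markers had 1.07 to 1.41 in KO and 1.43 to 1.51 in WT libraries. Monocyte and macrophage markers had 1.17 to 1.41 in KO and 1.07 to 1.14 in WT libraries. In the other marker lists the genotypes overlapped. Ccr3 and Ccr1 are also expressed by eosinophils, and Ccr2 and Ccr1 by monocytes. Of the 5 eosinophil and mast cell markers, 1 to 2 had a peak in KO and 2 in WT libraries (summed 0.563 to 1.40 in KO and 2.21 to 2.79 in WT). These were Epx and Ms4a2, the latter with a shared region of 0.632 scaled height in KO and 1.01 in WT libraries. Prg2, Siglecf and Fcer1a had no peak. Of the 5 monocyte and macrophage markers 2 had a peak in each library (6.25 to 7.25 in KO and 6.71 to 8.44 in WT), and Csf1r, Lyz2 and Adgre1 had none. The tallest shared region had scaled heights of 3.77 in KO and 4.05 in WT libraries at Cd14. At Itgam it had 0.551 in KO and 0.606 in WT libraries. For comparison, the tallest shared region of Foxp3 had 3.31 in KO and 3.45 in WT libraries. CD8 T and NK markers, cells that can carry Cxcr6, had summed scaled heights of 3.50 to 5.05 in KO and 7.10 to 8.04 in WT libraries, with no peak at Ncr1. Their tallest shared region, at Eomes, had 1.68 in KO and 2.11 in WT libraries. B cell markers had 11.6 to 16.1 in KO and 23.8 to 25.3 in WT libraries, with no peak at Ms4a1. Melanoma markers had 13.2 to 15.0 in KO and 15.8 to 18.0 in WT libraries, with no peak at Tyr and Dct. The tallest shared regions of these lists lay at Cd79a (3.40 in KO and 3.86 in WT) and Pmel (5.26 in KO and 5.08 in WT). Marker windows reach 10 kb past the gene span, so a peak counted for a marker may belong to another gene. The part of other cell types in the cluster's differences was not tested.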

How the data were processed

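ATAC-seq peak lists of 3 KO and 3 WT Treg libraries were grouped by the genotype in the labels. Per the submitters' processing notes, Bowtie2 2.3.1 and Picard 1.88 were among the tools and mm10 was the build. Per the file headers, MACS 2.1.1.20160309 called peaks on each library without a control, at a q-value of 0.05, with tags shifted by -100 bp, extended to 200 bp, 1 tag kept per position and a local window of 10000 bp. The authors' deposited pileup is a signal (tag coverage at the summit) not scaled to depth. Beside it, the authors gave its significance over the local background as a −log10 p-value and −log10 q-value, and its fold over that background, a ratio. A deeper library can call weaker sites at a fixed q-value.

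Peaks overlapping by at least 1 bp were merged over lists, and a library's height in a region was its highest peak. Genes, strands and start sites came from RefSeq tables on GRCm38.p6, which matched all 5 members, and give spans but no exons. The peak of KO replicate 2 far upstream of Cxcr6 lay 33 bp outside the window and is counted in the region but not among the gene's peaks. Values per library were compared with exact permutation tests (two-sided, difference of means, 20 assignments). Depth is 4.72 to 15.2 M tags (M, mega), and pileups at the WT rate are the mean over WT libraries of pileup per tag, times the tags of the KO library.

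All regions of the members are named. Of the other receptor genes, those named have peaks per 10000 that do not overlap between genotypes, are among the 4 with the tallest region, or are the 2 nearest to a member. Ligand and neighbouring genes with a shared or genotype-only region are also named. The motifs searched, on both strands, were GGAAGT for ETS, TGTGGT for RUNX, TGANTCA for AP-1, GGTGTGA for T-box, GGGANTTCC for NF-kB, TTCNNNGAA for STAT, AGATAA for GATA factors, GGGTGTG for KLF, CTTTGAA for TCF/LEF and TATAAA for the TATA box, and any overlap between motifs was allowed. The members and lists were chosen with earlier results of these data known. Replicate numbers 2 and 4 occur in both genotypes, but nothing in the labels pairs these libraries. Alternatives were a stricter threshold, lists of equal length, other windows, other merging, other scalings, leaving out each library and blocks by replicate number. The steps were tested on simulated data and run with SciPy 1.17.1, pandas 2.3.3, NumPy 2.4.6 and Matplotlib 3.10.9 under Python 3.11.15.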

Additional observations from a re-analysis of the deposited data

How the results depend on the processing

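Of 111 alternatives to the 10 results on the cluster, 100 kept their direction or a similar count. A difference was taken as kept by its sign alone, whatever its size. In lists of equal length, -7.33 peaks thus became -0.333 and -0.919 peaks per 10000 became -0.0894. Most alternatives left out 1 library, which keeps the KO libraries the shallower ones. The result that turned round, 1 in all, was the share of the stretch's peaks in the windows. It was 0.696 points higher in KO with lists of equal length. The regions in WT lists only, 4 in all, numbered 2 at a −log10 q of at least 5 and 0 in lists of equal length. The shared regions numbered 12 with 25 kb on each side. Shared regions with every KO below every WT library numbered 1 with the median of the shared regions, 1 per M tags, 2 with the fold enrichment and 1 with the median of lists of equal length. Members with fewer peaks in every KO library numbered 1 in lists of equal length, 1 with 5 kb on each side and 5 with the replicate block. Among single values, Ccr3 and Ccr9 had 0.667 more peaks in KO in lists of equal length, and the log2 difference upstream of Ccr2 was 0.0088 with the median of the shared regions, 0.050 per M tags and 0.015 with lists of equal length. Shortening the lists does not make the depth of the libraries equal, and the cause of these changes was not tested.

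Leaving out 1 library at a time gave KO minus WT differences of -8.17 to -6.17 peaks, -1.09 to -0.755 peaks per 10000, -3015.5 to -2521.5 bases, -0.376 to -0.294 in mean scaled height and -11.2 to -7.51 points of the stretch. It gave 4 to 5 regions in WT lists only, 0 in KO lists only, 5 to 6 shared regions, 4 to 5 of them lower in every KO library, and 3 to 4 members with fewer peaks. At the Cxcr6 start the log2 difference was -0.80 to -0.68. With all libraries, the mean scaled height differed by -0.0871 with the median of the shared regions and -0.0984 with that of lists of equal length, and the covered bases by -923.667 in lists of equal length.

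With the replicate block over numbers 2 and 4, the differences were -9 peaks, -1.21 peaks per 10000 and -11.6 points of the stretch, and the Cxcr6 start had -0.73. Deviations of libraries of the same number from their genotype mean had correlations of -0.02 for number 2 and -0.05 for number 4 over the 29419 shared regions. All KO and WT pairs lay between -0.05 and 0.05. A shift of a whole library drops out of this measure, so it cannot show whether the numbers pair libraries. They are used as names only. Regions in WT lists only numbered 4 with full lists and 0 in lists of equal length. Genotype and depth cannot be told apart in them. At the WT rate, KO libraries would hold the fewest tags at the Ccr1 start and the Ccr3 region within the gene.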

Other observations

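Between the Cxcr6 and Ccr1 windows, 8 regions from chr9:123923171-123923456 to chr9:123941379-123941769 lay on a raised local background of 2.55 to 4.66 times the median of the list. Their mean scaled heights were 1.24 to 2.64, but their median fold enrichments over that background were 2.90 to 5.42. Of these 8, 3 were called in all 6 libraries, against 45.4% of all merged regions, and 2 in no KO library. The tallest region between the Ccr3 and Ccr2 windows, chr9:124068113-124069174, had a mean scaled height of 2.29 in KO and 2.63 in WT libraries and a median fold enrichment of 11.8. It was taller than every region called in all 6 libraries at the 5 receptor genes.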
